A study of Mus musculus with 36 samples.

Results

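The 77 genes described here encode the proteins of the cytosolic ribosome, 31 of the small 40S subunit and 46 of the large 60S subunit, out of 49585 features measured in whole mouse bladder. They were taken by name: every gene called Rps or Rpl with a number, with or without a final a, x or l, plus Rplp0, Rplp1, Rplp2 and Rpsa, with a mean normalized value of 10 or more over the 36 libraries. Of 82 names that match, 5 fell under that limit. Just inside it were Rps12 at a mean of 29.5 and Rpl27 at 66.4, and the next member, Rpl29, already stood at 716. Just outside were the relatives Rpl6l at 1.58, Rpl3l at 1.13 and Rpl39l at 0.937, while Rpl10l and Rps4l were listed at 0 in all 36 libraries. The mouse annotation (GENCODE M21, build GRCm38) lists all 77 members as protein-coding, on 19 chromosomes, with 14 of them on chromosome 7 and 4 on the X.

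All animals were C57BL/6 mice from which both adrenal glands, the source of corticosterone, had been removed. After recovery they were given either vehicle or, at the inactive time of day, corticosterone (CORT), which is the chief glucocorticoid of mice. Every group thus lacked its adrenals, and no intact group was analysed here. Total RNA of whole bladder was sequenced at the time labels 4, 8, 12, 16, 20 and 24 h, with 3 libraries per treatment and time and thus 18 per treatment; the labels do not say what time 0 is. CORT libraries held a mean of 11016413 counted reads and vehicle libraries 10682675. Totals of single libraries are not preserved by the authors' normalization. The labels do not tie the 3 libraries of a group to different mice. What the p-values weigh is therefore the scatter among libraries, part of which can be technical.

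A ribosome carries nearly all of these proteins in a single copy each, so a cell makes them in matched amounts alongside the ribosomal RNAs. Their messenger RNAs are short, abundant and long-lived, and most begin with a C followed by a run of pyrimidines, the 5′ terminal oligopyrimidine (TOP) tract. Through this tract the kinase mTORC1 and the RNA-binding protein LARP1 control how much of the mRNA is translated and how well it is kept. Glucocorticoids and feeding both act on that pathway in several tissues, and the making of ribosomes follows the day in organs such as the liver. Ribosomal protein genes also serve widely as reference genes, on the assumption that they vary little.

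Runs of C and T near the annotated start are shown here in view of the TOP tract, but they need not be that tract. Of the genes printed, only Rps6 has a C followed by at least 4 pyrimidines at the annotated start itself. In Rpl34 and Rps25 the whole run lies before that start. RefSeq windows around the annotated start (GRCm38.p6, 250 bases before it and 50 from it on) were at hand for 57 of the 77 members. The 30 bases printed run 5′ to 3′ on the coding strand. Capitals mark the longest run of C and T of 8 or more bases that opens with C within 30 bases of the annotated start, and a window with no capitals holds none. The first 7 genes passed the test for a higher level in CORT described below, and the last 2, Rps6 and Rpl7a, did not.
Rpl34, chr3:130730388-130730417, minus strand: gcgccgCCTTCCCTgacgtacttcctgtcc
Rpl13a, chr7:45128720-45128749, minus strand: acaagaCCTCCTCCTTTCCCaggcggctgc
Rps25, chr9:44407686-44407715, plus strand: accgggCTTCCTTTTTTTCCgacatcttag
Rpl26, chr11:68901583-68901612, plus strand: gtagttCTCTTTCCTTTTgcggccatcggt
Rps7, chr12:28635908-28635937, minus strand: tccccaCCTCTTTTCTTCCgccacccggat
Rps4x, chrX:102189372-102189401, minus strand: gctgggcggagcaacccaggctccagcgcg
Rpl41, chr10:128549149-128549178, minus strand: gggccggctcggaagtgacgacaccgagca
Rps6, chr4:86857345-86857374, minus strand: gtcgggCCTCTTTTTCgtgacgcctcccag
Rpl7a, chr2:26910789-26910818, plus strand: acaattCCCTCTTCTTTCTTTCTCCagcag

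Runs of this kind were present near the start of 36 of the 57 members (63.2%) and of 19% of all 27025 genes with a window. Their first base rarely fell on the annotated start itself: a C at the start followed by at least 4 pyrimidines was found in 12 members (21.1%), against 2.49% of all genes. Rpl27a held the longest run, 20 bases, and the median over members was 9 bases against 5 over all genes. Among short motifs searched on both strands of the 300 bases, the ETS core CCGGAAG was in 22 members (38.6%) and in 9.12% of all genes. The SP1 core GGGCGG was in 34 members (59.6%) and 35.9% of all genes, and the E-box CACGTG in 5 members (8.77%) and 7.24% of all genes. These are matches of letters, not measured binding, and the motifs do not overlap in their letters.

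Levels in the bladder spanned a wide range around a median of 3340 normalized reads. The value of 71 members was 1000 or more, and 75 stood at 500 or more. Per kilobase of transcript, the scale on which genes can be compared, the highest levels were those of Rplp1 at 17719, Rps27 at 14858 and Rps14 at 13559. Rplp1 is an acidic protein of the P stalk that recruits elongation factors, Rps27 a zinc-binding small-subunit protein and Rps14 a protein of the small-subunit platform. The median member stood at 4444 per kilobase. At the bottom were Rps12 at 59.6, Rpl27 at 108 and Rps15a at 480 per kilobase. The principal transcript of Rps15a is annotated with 5130 bases. That of Rps20, at 1307 per kilobase with a mean value of 4843, has 3706 bases, so both ranks depend on the transcript chosen. Rps12 was erratic: it was listed at 0 in 13 libraries, at 552.9 in CORT 8 h replicate 3 and at no more than 100.2 in the others. No fold is given for it, and it is left out of the ranges below, though it stays in the counts over 77. The program that counted reads is not given in the sources used here. Reads that a member shares with its many processed copies elsewhere in the genome could have been kept, split or dropped. None of the 276 ribosomal protein pseudogene names ending in -ps reached a mean of 10.

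Ribosomal protein genes tended to stand higher in bladders of mice given CORT than in those given vehicle, by a small margin. Over the mean of the 6 times, 18 of the 77 passed the test as higher in CORT and 0 as lower (limma, Benjamini-Hochberg adjusted over all 17867 features tested, at 0.05). Over all features tested, 1.29% were called higher and 2.82% lower. The estimate lay above 0 for 76 of 77 members, against 57.2% of all features. An unadjusted p under 0.05 with a higher CORT value was reached by 57 members, against 10.9% of all features. The median member difference was 0.16 on the log2 scale, or 11.7%, where the median over all features was 0.02. Without Rps12 the differences ran from 0.05 (3.37%) in Rpl7a to 0.29 (22%) in Rpl41. The same counts among features of like abundance, 4810 that were no members with a mean of 500 or more, gave 1.52% higher, 4.14% lower and 57.4% above 0.

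**Figure D1:**
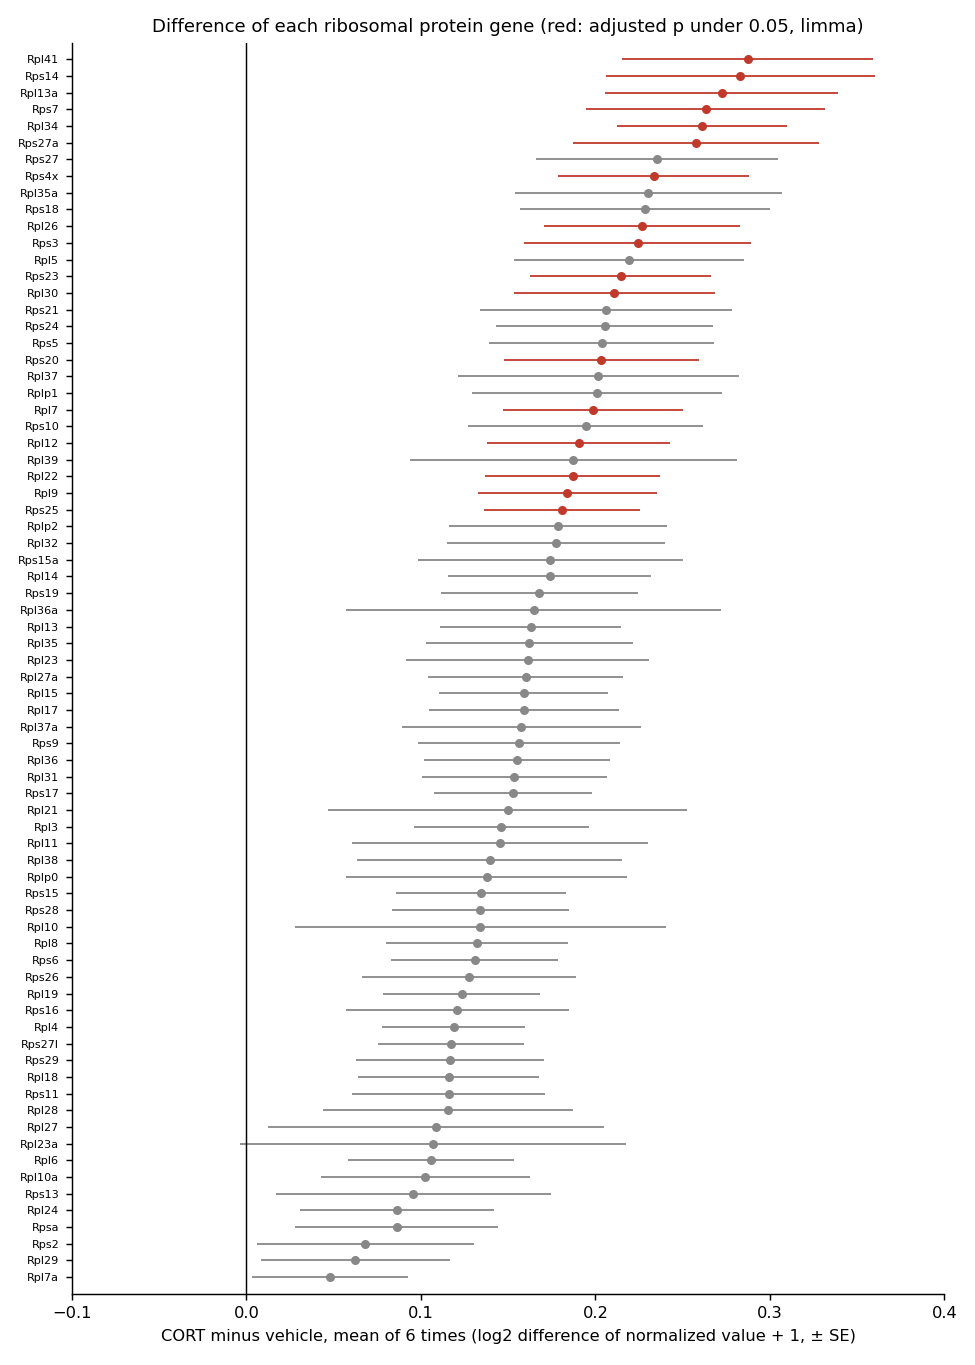
CORT minus vehicle difference (mean of 6 times, log2 of normalized value + 1) for 74 ribosomal protein genes; points are estimates, bars 1 standard error, red marks an adjusted p under 0.05 (limma). All 74 points lie to the right of 0, from 0.05 (Rpl7a) to 0.29 (Rpl41), and 17 of the 18 genes called are among them, in red.

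These calls changed with the scale and with the libraries kept. On the deposited scales, where the tables of each arm were normalized by themselves, 2246 features were higher and 500 lower, against 230 and 504 on the common scale, and 58 members were called higher (12.7% of features). The authors' tables of selected genes give 8 replicate 2 libraries (4, 8, 16 and 20 h of both treatments) names other than the full tables used here, some of them in the other treatment. Without those 8 libraries 0 members were called higher (limma; 53 at an unadjusted p under 0.05), where 0.00559% of all features were called higher and 0.028% lower. All 77 estimates were above 0 in that fit, with a median of 0.18. Under the other names 0 members were called as well (17 at an unadjusted p under 0.05), and 0% of all features passed in either direction, with 76 members above 0 and a median of 0.11. The clock gene Dbp, picked after the values were seen, stood at 166, 139.1 and 145.7 in vehicle 20 h replicates 1, 2 and 3. Under the other names replicate 2 there would hold 895.5, the value of the library used here as vehicle 8 h replicate 2. CORT 8 h replicate 2 held 397.4, beside 715.8 and 833.4. Its other name sets it beside 284.6 and 331.8 at CORT 20 h. CORT 20 h replicate 2 held 300.5, beside the same 2 values, or 1103 and 968.5 under its other name. Vehicle 20 h replicate 2 would stand beside 715.8 and 833.4 at CORT 8 h. CORT 4 h replicate 2 held 729.8, beside 461.6 and 685.7, or 358.1 and 338.8 under its other name. CORT 16 h replicate 2 held 182.5, beside 358.1 and 338.8, or 520.7 and 435.4. For vehicle 4 and 16 h replicate 2, at 412.7 and 511.7, both names gave neighbours of 435.4 to 685.7. Which names are right was not tested. A fit with a term for those 8 libraries, added after seeing the data, called 19 (1.3% of features). Leaving out 1 library at a time gave 7 to 42 calls, with 0.545 to 3.01% of all features called higher. The count fell by over 1.5 times to 7 without CORT 12 h replicate 3, CORT 24 h replicate 2 or vehicle 12 h replicate 3. It was 8 without CORT 8 h replicate 1, CORT 16 h replicate 2 or vehicle 20 h replicate 3, and 9 without vehicle 8 h replicate 3 or vehicle 24 h replicate 1. It was 10 without CORT 4 h replicate 1, vehicle 4 h replicate 3, vehicle 12 h replicate 1, vehicle 16 h replicate 1 or vehicle 24 h replicate 3. It rose to 29 without CORT 8 h replicate 3, to 35 without vehicle 12 h replicate 2 or vehicle 16 h replicate 3, and to 42 without CORT 24 h replicate 1. Through all of these single omissions 76 or 77 members kept an estimate above 0.

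Rpl34, a large-subunit protein, had the smallest p. Its normalized read count ranged from 2790 to 4198 in the 18 CORT libraries, with a median of 3465, and from 2645 to 3568 in the 18 vehicle libraries, with a median of 2837. The ranges overlapped, with 17 of 18 CORT libraries above the vehicle median and 6 above every vehicle library. Means were higher in CORT at all 6 times, and the log2 difference was 0.26 ± 0.05 (SE; limma adjusted p = 0.00354).

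Rps4x, an X-linked gene of the small subunit, was the third most abundant member by normalized read count. It ran from 8763 to 14834 in CORT (median 9919) and from 7767 to 10470 in vehicle (median 8628). All 18 CORT libraries lay above the vehicle median and 7 lay above every vehicle library, for a log2 difference of 0.23 ± 0.05 (SE; adjusted p = 0.0174). The high end came from CORT 8 h replicate 1.

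Rpl41, whose coding sequence of 75 bases makes it the smallest protein of the ribosome, had the largest difference, 0.29 ± 0.07 (SE; adjusted p = 0.0244). Its values were 2559 to 5309 in CORT (median 3820) and 2164 to 4088 in vehicle (median 3125), with 17 of 18 CORT libraries above the vehicle median. Rps14 followed at 0.28 ± 0.08 (SE; adjusted p = 0.0360) with 6273 to 12416 in CORT and 5981 to 9144 in vehicle. Rpl13a, which can leave the ribosome to silence inflammatory mRNAs, stood at 3670 to 6776 in CORT and 3476 to 5122 in vehicle, a difference of 0.27 ± 0.07 (SE; adjusted p = 0.0216). In each of these genes the highest CORT library stood above the highest vehicle library, while the bulk of both ranges overlapped.

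**Figure D2:**
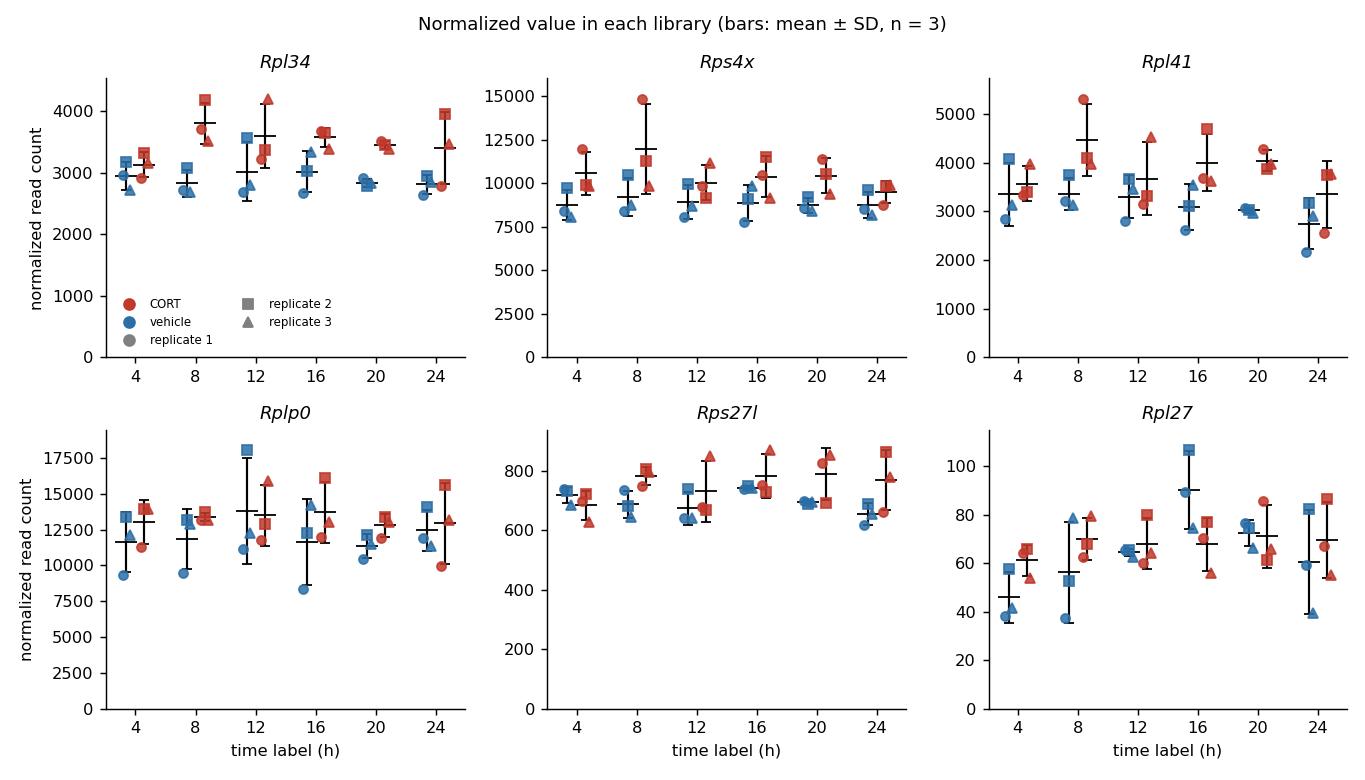
Normalized read count of Rpl34, Rps4x, Rpl41, Rplp0, Rps27l and Rpl27 in each of the 36 libraries against the time label in h; red is CORT, blue vehicle, symbols are replicate numbers, and black bars are the mean ± SD of 3 libraries, on axes that start at 0. The arms overlap in every panel, with CORT means above vehicle means at all 6 times in Rpl34, Rps4x and Rpl41, and Rpl27 at its highest vehicle mean, 90.1, at 16 h.

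Both subunits had members that passed. Of the 31 small-subunit genes 8 were called higher, with a median of 0.17, and of the 46 large-subunit genes 10, with a median of 0.16. The P stalk, where GTP-consuming translation factors dock, is made of Rplp0, Rplp1 and Rplp2 on a base with Rpl12. Only Rpl12 of these 4 passed the test (0.19 ± 0.05, SE; adjusted p = 0.0376), while Rplp1 stood at 0.20 ± 0.07 (adjusted p = 0.108), Rplp2 at 0.18 ± 0.06 and Rplp0 at 0.14 ± 0.08. Rpl5 and Rpl11 form the 5S ribonucleoprotein, which also binds Mdm2 when ribosome assembly fails. Neither passed, at 0.22 ± 0.07 (adjusted p = 0.0582) and 0.15 ± 0.08 (adjusted p = 0.341). Of 8 proteins lining or ringing the tunnel through which the new chain leaves, Rpl26 was called (0.23 ± 0.06, SE; adjusted p = 0.0230), and their median was 0.16.

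At the mRNA entry and decoding site 3 of 6 were called: Rps23, which sits by the decoding centre, at 0.21, Rps3, part of the entry channel, at 0.22, and Rps27a at 0.26. Rps27a is made fused to ubiquitin. Rps2 of the same site had the lowest difference of the small subunit, 0.07 ± 0.06 (SE), and did not pass. Around the peptidyl transferase centre 0 of 3 (Rpl3, Rpl8, Rpl10) passed by limma, 2 of them with an unadjusted p under 0.05, with a median of 0.13. Of 10 genes mutated in Diamond-Blackfan anaemia, a red cell aplasia of faulty ribosome assembly, Rps7 and Rpl26 were called and the median was 0.20. Rps6, the S6 kinase substrate read as a sign of mTORC1 activity in its phosphorylated form, gave 0.13 ± 0.05 (SE; adjusted p = 0.119).

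Members with a known role outside bulk translation were read one by one. Rpl38 and Rpl10a, known for selective translation in development, gave 0.14 ± 0.08 and 0.10 ± 0.06 (SE) and were not called, and Rpl22, an RNA-binding protein tied to T cell development, was called at 0.19 ± 0.05 (SE; adjusted p = 0.0336). Rps27l, a copy of Rps27 that p53 can induce, stood at 629.5 to 869.1 in CORT and 618.7 to 748.4 in vehicle. Its difference of 0.12 ± 0.04 (SE) was not called (adjusted p = 0.106), although 10 of 18 CORT libraries lay above every vehicle library. Among the smallest differences were those of Rpl7a (0.05 ± 0.04), Rpl29 (0.06 ± 0.05), Rps2 (0.07 ± 0.06), Rpsa, also known as the laminin receptor (0.09 ± 0.06), and Rpl24 (0.09 ± 0.06), all ± SE and none called. Rpl7a ranged from 1368 to 2005 in CORT and from 1327 to 1896 in vehicle, so its arms overlapped over nearly their whole range.

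Rplp0, Rps18, Rpl13a, Rpl32, Rpl19 and Rps29 are in common use as reference genes for quantitative PCR. All 6 estimates were above 0, from 0.12 (Rps29) to 0.27 (Rpl13a), with a median of 0.16, and Rpl13a passed the test. Rplp0 ran from 9986 to 16087 in CORT and from 8336 to 18018 in vehicle, so its highest value was in the vehicle arm, in 12 h replicate 2. Between replicates of a group, the standard deviation on the log2 scale was low in Rpl4 (0.12) and Rps27l (0.12) and highest in Rpl23a (0.34), Rpl36a (0.33) and Rpl10 (0.33). Its median over members was 0.18, against 0.14 over other features with a mean of 500 or more. Rpl19 (0.13) was among the steadiest, and Rplp0 (0.24) was 68th of 76 in order from the steadiest.

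Members varied together from library to library. As a share of all normalized reads they took 2.35 to 3.71% in CORT libraries (median 2.93%) and 2.33 to 3.22% in vehicle libraries (median 2.56%). The mean log2 deviation of the 76 genes from their own means, called the member level here, was above the median of the 36 libraries in 15 CORT and 3 vehicle libraries. Only 3 CORT libraries stood above the highest vehicle library. The highest level was 0.42 in CORT 8 h replicate 1, where 75 of 76 members lay above their own mean, followed by 0.28 in CORT 12 h replicate 3. The lowest was also a CORT library, 24 h replicate 1, at -0.23, with 3 of 76 above their mean, next to vehicle 16 h replicate 1 at -0.22. Vehicle 12 h replicate 2 was the highest vehicle library at 0.19. The levels of the small and large subunits never differed by more than 0.08 in a library, and were for instance 0.42 and 0.43 in CORT 8 h replicate 1 and -0.26 and -0.20 in CORT 24 h replicate 1.

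**Figure D3:**
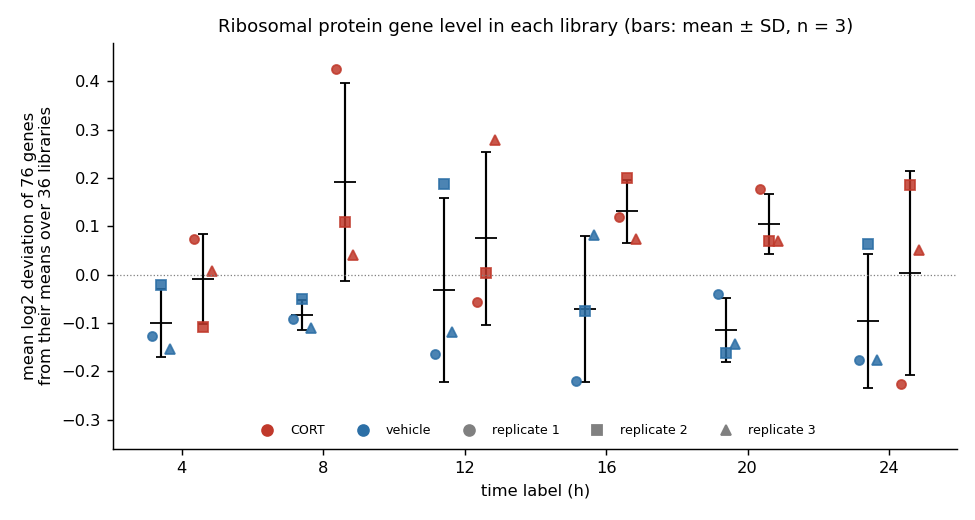
Member level (mean log2 deviation of 76 ribosomal protein genes from their means over 36 libraries) in each library against the time label in h; red is CORT, blue vehicle, symbols are replicate numbers, bars the mean ± SD of 3 libraries. CORT means lie above vehicle means at all 6 times, and single libraries range from -0.23 (CORT 24 h replicate 1) to 0.42 (CORT 8 h replicate 1).

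After group means were removed, the median correlation between pairs of members over the 36 libraries was 0.62, and 96.5% of pairs were above 0. Among other features with a mean of 500 or more the median was 0.002. This is a description across genes that share libraries, depth and normalization. The first component held 59% of the members' variance and the second 14.7%. The correlation with the mean of the other members was high in Rps18 (0.93) and Rpl19 (0.92), and lowest in Rpl27 (0.13), Rpl23a (0.32) and Rpl10 (0.38).

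For a small set of members the values followed a group of libraries. In the 8 replicate 2 libraries whose names differ between tables, Rpl23a ran from 1193 to 1762, and from 2050 to 3105 in the other 28. Rpl36a ran from 732.4 to 1059 in the 8 and from 1146 to 2175 in the others, and Rpl21 from 1057 to 1376 against 1406 to 2434. All 8 libraries thus lay below all 28 others for these 3 members, which holds for 0.056% of all features tested, and for 0 members did they lie above (0% of features). The log2 differences were -0.69, -0.58 and -0.51, while the median over 76 members was 0.03. The 8 libraries include 4 of each treatment under the names used here, and they were registered one after the other. Of these genes, chosen after their values were seen, Rpl23a binds the signal recognition particle at the tunnel exit.

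**Figure D4:**
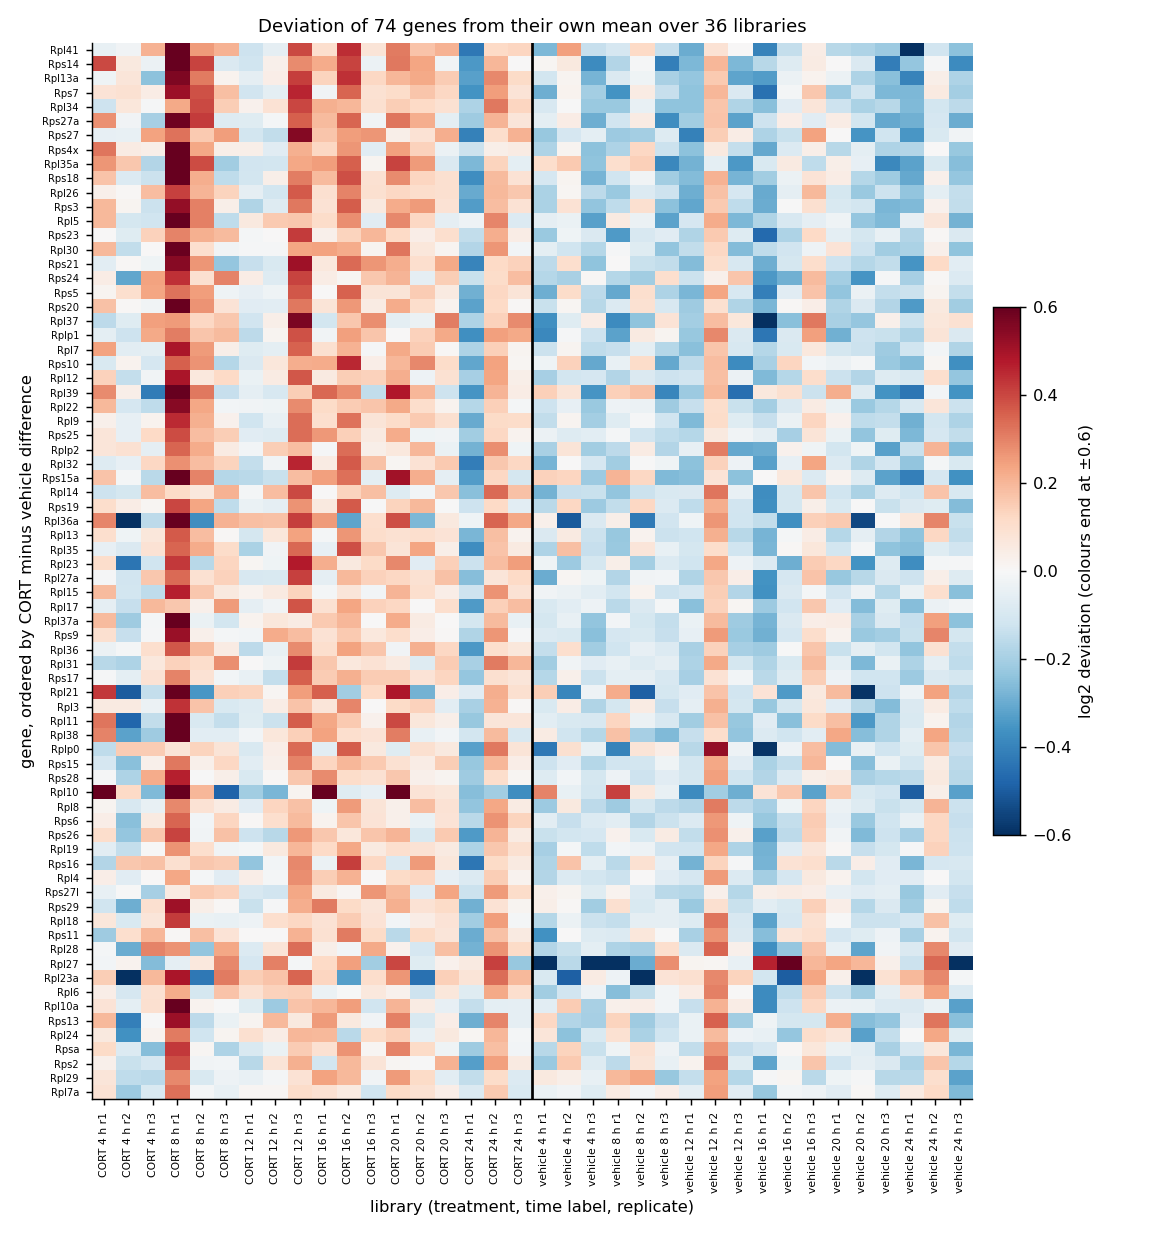
Deviation of each of 74 ribosomal protein genes (rows, ordered by CORT minus vehicle difference) from its own mean over 36 libraries (columns, CORT left of the line and vehicle right), in log2 units with colours ending at ±0.6. Whole columns are red (CORT 8 h replicate 1, CORT 12 h replicate 3) or blue (CORT 24 h replicate 1), and Rpl36a, Rpl21 and Rpl23a are blue in the replicate 2 columns of 4, 8, 16 and 20 h in both arms.

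The calls came from the mean over the day, not from a single time. At each of the 6 times 0 members passed in either direction (limma). The percentages of all features called higher were 0.112% at 4 h, 0.134% at 8 h, 0.0056% at 12 h and 0% at 16, 20 and 24 h. Those called lower were 0.0504%, 0.66%, 0.0392%, 0.0112%, 0% and 0.0336% in the same order of times. Each time sets 3 libraries against 3. Estimates above 0 were found for 64 members at 4 h, 75 at 8 h, 71 at 12 h, 76 at 16 h, 76 at 20 h and 72 at 24 h. Of all features, 50.1, 57.4, 54, 49.1, 57.6 and 55% were above 0 at these times. An unadjusted p under 0.05 was reached by 0, 27, 1, 6, 7 and 2 members in the same order, against 3.71, 7.29, 1.89, 1.9, 3.21 and 2.85% of all features that reached it with a higher CORT value.

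The median member difference was 0.29 at 8 h, 0.22 at 16 h and 0.22 at 20 h. At 4, 12 and 24 h it was 0.10, 0.11 and 0.09. The member level at 8 h was 0.19 ± 0.20 in CORT and -0.08 ± 0.03 in vehicle (SD, n = 3), and the wide CORT spread came from replicate 1 at 0.42 beside 0.11 and 0.04. At 20 h the groups did not overlap: 0.18, 0.07 and 0.07 in CORT against -0.04, -0.16 and -0.14 in vehicle. At 24 h they overlapped widely, with 0.00 ± 0.21 in CORT and -0.10 ± 0.14 in vehicle (SD, n = 3).

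Rpl34 had the smallest p at 8 h. Its CORT libraries held 3715, 4177 and 3518 reads and its vehicle libraries 2725, 3076 and 2682, without overlap. The log2 difference was 0.43 ± 0.12 (SE; adjusted p = 0.0803 by limma). Rps14 had the largest estimate at 8 h, 0.52 ± 0.19 (SE; adjusted p = 0.180), and Rpl41 the largest at 16, 20 and 24 h, 0.37, 0.42 and 0.28. Rpl13a was the largest at 12 h, 0.27, and Rpl27 at 4 h, 0.42 ± 0.24 (SE). The lowest estimates were those of Rpl29 at 4 h (-0.10) and 8 h (-0.01), Rpl10a at 12 h (-0.08), Rpl27 at 16 h (-0.40) and 20 h (-0.04), and Rps13 at 24 h (-0.02). None of these passed the test at a single time. Whether the CORT minus vehicle difference changed over the 6 times was tested directly, and 0 of 77 members passed (0.134% of features; limma). At an unadjusted p under 0.05 it was again 0 members (5.51% of features).

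Neither arm showed a daily rhythm in these genes that passed the test. For any change over the 6 times, 0 members passed in CORT (0.118% of features; limma) and 0 in vehicle (1.18% of features). At an unadjusted p under 0.05 there were 0 members in CORT (6.72% of features) and 1 in vehicle (14.4% of features). A cosine of 24 h over the 18 libraries of an arm gave 0 members in CORT (0% of features; limma) and 0 in vehicle (0.429% of features). At an unadjusted p under 0.05 these tests had 0 members in CORT (5.89% of features) and 1 in vehicle (12.6% of features). The median amplitude, mean to peak on the log2 scale, was 0.07 in CORT and 0.04 in vehicle. The test of a difference in rhythm between arms gave 0 members (0.106% of features; limma), and 1 at an unadjusted p under 0.05 (4.37% of features).

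That single member was Rpl27, a large-subunit protein, in each of these tests. In vehicle its mean was 45.8 ± 10.4 at 4 h, 56.2 ± 20.8 at 8 h, 64.4 ± 1.55 at 12 h, 90.1 ± 16.1 at 16 h, 72.3 ± 5.46 at 20 h and 60.3 ± 21.5 at 24 h (SD, n = 3). In CORT the means stayed between 61.1 and 71.0. The vehicle cosine had an amplitude of 0.42 ± 0.10 (SE) with a peak at 16.7 h and an adjusted p of 0.142 by limma. The CORT amplitude was 0.05 ± 0.07, and the difference in rhythm had an adjusted p of 0.955. With values near 66, Rpl27 rests on far fewer reads than the other members except Rps12. Among the rest, the largest vehicle amplitudes were those of Rpl41 (0.12), Rps15a (0.09) and Rpl10a (0.08), and the largest in CORT those of Rps10 (0.12), Rpl13a (0.12), Rps21 (0.11) and Rps29 (0.10).

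Other parts of the ribosome pathway were read from lists by the same fit. Ribosomal proteins whose names the rule does not cover numbered 7 tested, with a median of 0.14 and 6 above 0. Rps3a1 was called (0.23 ± 0.06, SE; adjusted p = 0.0209), while Fau, made fused to a ubiquitin-like protein, stood at 0.16 and Rack1 at 0.17. The paralogues Rpl22l1 (0.14) and Rpl7l1 (-0.03) were not called. Rpl22l1 ran from 279.1 to 960.9 in CORT and from 322.8 to 655.7 in vehicle.

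Of 18 other mRNAs that carry a TOP tract, mainly elongation and initiation factors, 3 were called higher, 16 had estimates above 0, and the median was 0.16. Called were Eif3e, an initiation factor subunit (0.22 ± 0.04, SE; adjusted p = 0.00214), Eef1a1, which brings aminoacyl-tRNA to the ribosome (0.31 ± 0.07; adjusted p = 0.0204), and Btf3, part of the nascent chain complex (0.12 ± 0.04; adjusted p = 0.0423). Eif3e stood at 2195 to 2838 in CORT and 1948 to 2540 in vehicle, with all 18 CORT libraries above the vehicle median. Eef2, the translocase, gave 0.33 ± 0.12 (adjusted p = 0.120), Tpt1 0.19 ± 0.07, Npm1 0.16 ± 0.07 and Pabpc1 0.18 ± 0.08, none called. For noncoding hosts of small nucleolar RNAs, TOP transcripts that make no protein, the median was 0.22 with 7 of 7 above 0. Snhg1 was called (0.22 ± 0.05, SE; adjusted p = 0.0187), Zfas1 stood at 0.29 (adjusted p = 0.0747) and Gas5, whose RNA can bind the glucocorticoid receptor, at 0.16 (adjusted p = 0.266). Of these other TOP mRNAs, the small nucleolar RNA hosts and the ribosomal proteins with other names, 0 stayed called (limma) without the 8 libraries named in 2 ways, under their other names, or without replicate 2 or replicate 3, and Btf3 lost its call in 25 of the 36 fits that left out 1 library.

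**Figure D5:**
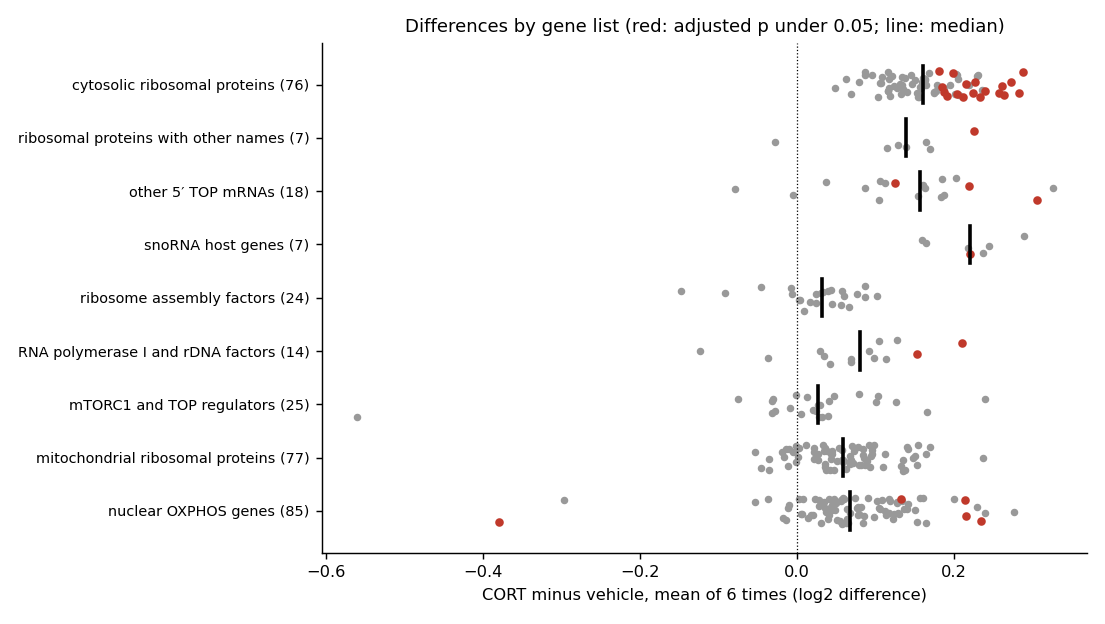
CORT minus vehicle difference (mean of 6 times, log2) of each gene in 9 lists, with the number of genes plotted in brackets; red points have an adjusted p under 0.05 (limma) and black lines are medians. Medians are 0.16 for cytosolic ribosomal proteins and other 5′ TOP mRNAs and 0.22 for snoRNA host genes, and 0.03 for ribosome assembly factors and for mTORC1 and TOP regulators.

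Of 24 assembly factors, which process ribosomal RNA and carry the subunits, 0 were called by limma and the median was 0.03. An unadjusted p under 0.05 was reached by 3, among them Pes1 at 0.08 ± 0.03 (SE) and Nip7 at 0.10 ± 0.05. Among 14 subunits and partners of RNA polymerase I, which transcribes ribosomal RNA, Polr1d (0.15 ± 0.04; adjusted p = 0.0486) and Taf1d (0.21 ± 0.05; adjusted p = 0.0198) were called, and the median was 0.08. Both lost their calls without the 8 libraries, under the other names and without any 1 of the 3 replicate numbers, and Polr1d also in 28 of the 36 fits without 1 library. A change over the 6 times in vehicle had an unadjusted p under 0.05 (limma) in 19 of the 24 assembly factors, against 14.4% of all features. After adjustment 3 of them passed, where 1.18% of all features did: Rrp12 (adjusted p = 0.0236), Nop56 (adjusted p = 0.0377) and Ddx21 (adjusted p = 0.0415). Snhg1 passed as well (adjusted p = 0.0219). These 4 calls were also lost without the 8 libraries, under the other names and without each replicate number. Without 1 library at a time Ddx21 lost its call in 17 of 36 fits, Nop56 in 12, Rrp12 in 2 and Snhg1 in 2. None of the 77 ribosomal protein genes passed that test.

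Of 25 genes of the mTORC1 pathway and TOP control 0 were called by limma (3 at an unadjusted p under 0.05), with a median of 0.03. Larp1 gave 0.00 ± 0.04 (SE), Mtor 0.01 ± 0.03 and Eif4ebp1 0.03 ± 0.04. Genes that glucocorticoids induce in other tissues and that restrain mTORC1, Ddit4 (0.17 ± 0.14; adjusted p = 0.534) and Klf15 (0.24 ± 0.18; adjusted p = 0.482), and Myc, a driver of ribosome genes (-0.03 ± 0.10; adjusted p = 0.912), were not called. Klf15 ran from 96.67 to 727.3 in CORT and from 91.39 to 299.9 in vehicle. At 4 h it held 322.9, 727.3 and 501.6 in CORT and 127.4, 166.1 and 135.4 in vehicle. Ddit4 at 4 h held 237.8, 739.7 and 756.1 in CORT and 179.8, 326.6 and 267.9 in vehicle. The CORT mean was the higher at 3 of the 6 times for Klf15 and at 4 for Ddit4. At 4 h 0 of the 25 were called by limma (4 at an unadjusted p under 0.05), with 0.112% of all features called higher and 0.0504% lower. Trp53, Mdm2, Mdm4, Cdkn1a and Cdkn2a, read for the response to failed assembly, gave 0 calls of 5 by limma (1 at an unadjusted p under 0.05) with a median of 0.02. Mitochondrial ribosomal proteins, also 77 in number, had 0 calls by limma (15 at an unadjusted p under 0.05), 64 estimates above 0 and a median of 0.06. Nuclear oxidative phosphorylation genes, other short abundant mRNAs, had 4 called higher and 1 lower of 85 (31 at an unadjusted p under 0.05), 77 estimates above 0 and a median of 0.07.

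Features of the gene were set beside the size of the difference. Over 76 members its Spearman rho was -0.04 with transcript length, -0.24 with coding length, 0.32 with the mean normalized value and 0.25 with the spread between replicates. Of 56 members with a window and steady counts, the 35 with a pyrimidine run of 8 or more had a median difference of 0.16 with 5 called, and the 21 without had 0.16 with 7 called. An ETS match split the same members into 22 with a median of 0.16 and 34 with a median of 0.16. As the printed windows show, Rpl41 and Rps4x had large differences without such a run near the annotated start, and Rpl7a the smallest with a run of 19 bases.

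Whole bladder mixes urothelium, muscle and connective tissue, and a bulk measurement cannot tell fewer cells of a type from less RNA per cell. The uroplakin and keratin genes and Trp63, read as urothelial markers, were all present, summing to 41938 to 77312 in CORT and 39542 to 95167 in vehicle. None of these 8 was called by limma (4 had an unadjusted p under 0.05), and 8 of 8 estimates were above 0 with a median of 0.18. All 6 endothelial markers were called lower in CORT, with a median of -0.42 and sums of 2198 to 3876 against 2884 to 5661. Without the 8 libraries named in 2 ways 1 of these 6 stayed called (median -0.43), under the other names 0 (median -0.39), and without replicates 1, 2 and 3 it was 5, 0 and 1, with 6 of 6 at an unadjusted p under 0.05 in each of these fits. Of 6 fibroblast markers, Col1a1 (-0.56 ± 0.12) and Col1a2 (-0.35 ± 0.10) were called lower, both lost without the 8 libraries, under the other names and without replicate 2 or 3, and Col1a2 in 25 of 36 fits without 1 library. Fibroblast sums were 86197 to 157646 in CORT and 98415 to 212197 in vehicle. Smooth muscle markers gave 0 calls of 7 by limma (0 at an unadjusted p under 0.05) with a median of -0.02 and sums of 202584 to 365781 in CORT and 144011 to 413094 in vehicle. Immune, erythroid, striated muscle and fat markers gave 0 calls (1, 0, 0 and 0 at an unadjusted p under 0.05). Immune sums were 1499 to 2150 in CORT and 1448 to 2400 in vehicle, and erythroid sums 1085 to 3722 and 976.9 to 6407. Of these markers S100a8, S100a9 and Myh4 had a median of 0 over the libraries. In the library of highest member level, CORT 8 h replicate 1, the urothelial level was 0.28 and the endothelial level -0.70 on the log2 scale. In the lowest, CORT 24 h replicate 1, they were -0.49 and -0.08, and the smooth muscle level was 0.33. Vehicle 12 h replicate 2 had a urothelial level of 0.58 and a smooth muscle level of -1.05. These 3 libraries were picked by their member level, and no relation over all 36 libraries is given. In vehicle 16 h replicate 1, next to the lowest in member level, Upk1b, 1 of the 8 urothelial markers, stood at 13585. Its vehicle median was 12596. The part of cell makeup in the member differences was not tested.

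Replicate number is the other division among libraries: replicate 3 libraries were registered later, carry no time tag of their own and may be a separate batch, with 1 library per group. Within replicate 1 the median member difference over the 6 times was 0.22, with 77 of 77 members above 0 where 52.5% of all features were. Within replicate 2 it was 0.09, with 67 above 0 against 58.3%, and within replicate 3 it was 0.19, with 76 above 0 against 56%. The members' mean share of normalized reads was 2.95% in CORT and 2.49% in vehicle in replicate 1, 2.99% and 2.8% in replicate 2, and 2.99% and 2.61% in replicate 3. The median was above 0 in all 3 and smallest in replicate 2, where 8 of the 12 libraries are named in 2 ways. Why it was smaller there was not tested.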

How the data were processed

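Total RNA of whole bladder was rRNA-depleted and sequenced from a directional library kit, per the labels' protocols; the same text describes RNA from blood with globin removal, while the labelled source is whole bladder. The submitters' processing notes name the build mm10. Which programs aligned and counted the reads is not given in the sources used here. Deposited values, a signal per gene, started as read counts and were brought by the authors to 1 distribution in each table of 12 libraries (quantile normalization): every library of a table holds the same sorted values, and 100% of values are multiples of 1/12 (tolerance 0.01). The authors deposited log2 values only for genes they selected, and those were used here only to compare library names. All 108 value columns used were matched to samples by name, and 8 replicate 2 libraries are named differently in the selected-gene tables.

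A scale common to the 36 libraries was rebuilt by averaging the sorted value sets and ranking each library's genes on them; the rebuild was tested on simulated counts. Mean totals by treatment and replicate number ran from 9591304 to 12311337, so a value near 100 stands for roughly as many reads. Values were analysed as log2(value + 1), which understates differences of low genes, with limma 3.58.1 in R 4.3.3 (1 mean per treatment and time, no replicate block). P-values were Benjamini-Hochberg adjusted over all features tested. Features at 0 in more than 18 of the 36 libraries were left out, which kept 17867. In the rhythm fits of 1 arm the same share was applied to its 18 libraries. This kept 17921 features in CORT and 17945 in vehicle. All 77 members passed in each case. The 24 h rhythm was a cosine and sine fit per arm. Differences are CORT minus vehicle with their standard errors. Promoter windows are from RefSeq (GRCm38.p6), and gene positions and lengths from GENCODE M21; all 77 names matched the latter and 57 the former.

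Genes named with values were members past the threshold, those with the largest and smallest differences, levels, amplitudes and spreads, a list of well-known members, and the leading genes of each other list. Rpl23a, Rpl36a, Rpl21 and Dbp were named after their values were seen, and Rpl10 was set beside the order of registration in the same way. A few genes that the rule names are not reported or plotted here one by one, though they stay in the counts. The members and lists were chosen with earlier results of these data known. Alternatives covered scaling, pseudocount, filter, variance model, library weights, a replicate block, library names and each library left out.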

Additional observations from a re-analysis of the deposited data

How the results depend on the processing

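The median member difference stayed between 0.11 and 0.22 under every alternative run, with 76 or 77 of 77 members above 0 (75 among members with a mean of 100 or more), but the count of 18 members higher in CORT did not stay. It was 17 with libraries centred on their median, 17 and 21 with pseudocounts of 0.5 and 8, 16 without a filter and 23 with an intensity trend, where 0.688 to 1.55% of all features were called higher against 1.29%. Other settings moved it by over 1.5 times or close to that: 58 on the deposited scales, where tables were normalized separately and the median of all features rose to 0.07 (12.7% of features higher), 50 with library weights (9.32%), 24 with a filter at a mean of 10 (2.35%), 25 with treatment and time as additive terms (1.46%), and 39 with a replicate block (3.01%). Without the 8 libraries named in 2 ways it was 0 (0.00559%), and under their other names 0 (0%). Without replicate 1, 2 or 3 it was 1, 0 and 0 (0.464, 0 and 0.0168%), and without single libraries 7 to 42 (0.545 to 3.01%). Chosen after seeing the data, leaving out the libraries with the highest and lowest member level gave 28 (1.67%), leaving out CORT 8 h replicate 1 and CORT 12 h replicate 3 gave 2 (0.291%), and a term for the 8 libraries gave 19 (1.3%). The cause of these shifts was not tested, beyond the fewer libraries in some of them. No member was called lower in CORT under any alternative. At 8 h the 0 members became 8 with library weights, 1 with the replicate block, and between 0 and 1 without single libraries or replicates (1 without CORT 8 h replicate 3); a time change in vehicle was called for 1 member with library weights.

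The replicate block pairs libraries that share only a number. Deviations of CORT and vehicle libraries with the same number and time correlated between -0.10 and 0.26, over 0.1 in 5 of 18 pairs, with a mean of 0.06 for libraries of the same number in other groups against -0.03 for other numbers. Of the members, Rps12 and Rpl27 rest on the fewest reads. Why Rps12 stood at 552.9 in CORT 8 h replicate 3 and at 0 in replicates 1 and 2 was not tested.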
